A study of Mus musculus with 16 samples.

Results

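Lefty1, Lefty2 and Tmem63a lie close together on mouse chromosome 1, and each of them is measured by 1 probe (ILMN_1246073, ILMN_2713164 and ILMN_2769946) among the 24606 probes of the Illumina MouseRef-8 array. These are 3 of the 15967 genes named on the array, and the 3 probes are all of those that the platform annotation assigns to these genes. The genes were chosen by their intensities with Activin, SB-431542 and DMSO on these same arrays, so their differences between Activin, SB and DMSO are given below as descriptions without a test. Tests are given only for what the choice did not use, which is the vehicle, the passage of the cells and whether the response changed with passage.

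The arrays hold RNA of E14TG2a cells, an HPRT-deficient line of mouse embryonic stem (ES) cells, and all 16 cultures came from this single line. Every culture was first kept for 6 h in medium with 20% Knockout Serum Replacement (KSR) and 10 µM SB-431542, a compound that blocks the type I receptor kinases of Activin, Nodal and TGFbeta and is called SB below, so the controls had met the inhibitor too. By the paper's methods this medium contained no leukemia inhibitory factor (LIF). For the next 18 h the medium held 25 ng/ml Activin (high signaling), 10 µM SB (low signaling), the DMSO vehicle at a dilution of 1 in 5000, or no addition (KSR). Each of these 4 groups has 4 cultures, at passages 20, 21, 23 and 24, so replicates are passages of the same line. In comparisons of groups, p-values measure the spread between passages. In tests of passage, they rest on the spread that is left after group and passage are fitted.

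Nodal and Activin bind type I and type II serine/threonine kinase receptors, which phosphorylate Smad2 and Smad3. These join Smad4, enter the nucleus and act on target genes with partners such as FoxH1. Lefty1 and Lefty2 are secreted members of the TGFbeta family that bind Nodal and its EGF-CFC co-receptors and block the signal. Both genes are known targets of the pathway they inhibit, which makes them a negative feedback loop, and in the embryo they are expressed on the left side. Tmem63a encodes a multi-pass membrane protein of a family of mechanically and osmotically gated cation channels.

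In the RefSeq gene table for mouse, Lefty2 comes before Lefty1, and Tmem63a is the next gene after Lefty1. Probe sequences and the genome build of the probes were not used here, so whether the Lefty1 probe also binds Lefty2 RNA, which is close in sequence, was not tested.

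The arrays differed in brightness, and the deposited intensities given below are not scaled for this. Mean intensity ran from 486 on the KSR array of passage 21 to 760 on the KSR array of passage 24, and 9816 to 10482 probes were above background. Above background means brighter on an array than 95% of its 1191 probes for olfactory, vomeronasal and taste receptors, a limit of 52.9 to 68.1 intensity units. All 7 measured ES cell markers, among them Pou5f1, Nanog and Sox2, were above background on 16 of 16 arrays. Of the 5 fibroblast markers, 4 were above it on none, and Thy1 was above it on 12 of 16 arrays.

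Lefty1 was bright in every group except SB. Its deposited intensity with Activin was 9273, 11508, 9133 and 12953 at passages 20, 21, 23 and 24. With DMSO it was 4207, 5499, 2799 and 4476, and in KSR alone 4106, 3412, 3011 and 4614.5. All 4 Activin arrays lay above all control arrays, and the DMSO and KSR arrays overlapped. After normalization 1.24% of all probes had every Activin array above every DMSO array, and 1.91% had every SB array below. With SB it was 37.1, 71.5, 24.7 and 34.0, and only the passage 21 culture was above background.

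Lefty2 followed the same order. The Activin arrays read 2896, 4182, 3127 and 4736, in the order of passages 20, 21, 23 and 24. The DMSO arrays read 981, 1603, 785 and 1359, and the KSR arrays 973, 1006, 698 and 1311.5. The lowest Activin array was thus above the highest DMSO array. With SB the signal was 7.9, 11.2, -6.1 and 8.7, and none of these 4 arrays was above background, a value below 0 meaning less light than the background that had been subtracted.

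Tmem63a had a smaller range. Its intensity was 211.5, 281, 274 and 297 with Activin, and 129, 195, 134 and 179.5 with DMSO. The KSR arrays read 127, 107, 128 and 220, which spans the DMSO values and reaches above the lowest Activin array. After normalization to log2 this overlap with Activin was gone, with 8.12 on the highest KSR array and 8.32 on the lowest Activin array. With SB the values were 27.0, 23.6, 52.9 and 13.0, below the background limit on 4 of 4 arrays. Dim probes leave little room for a fall to be measured, and for Tmem63a with SB only a bound can be given.

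**Figure D1:**
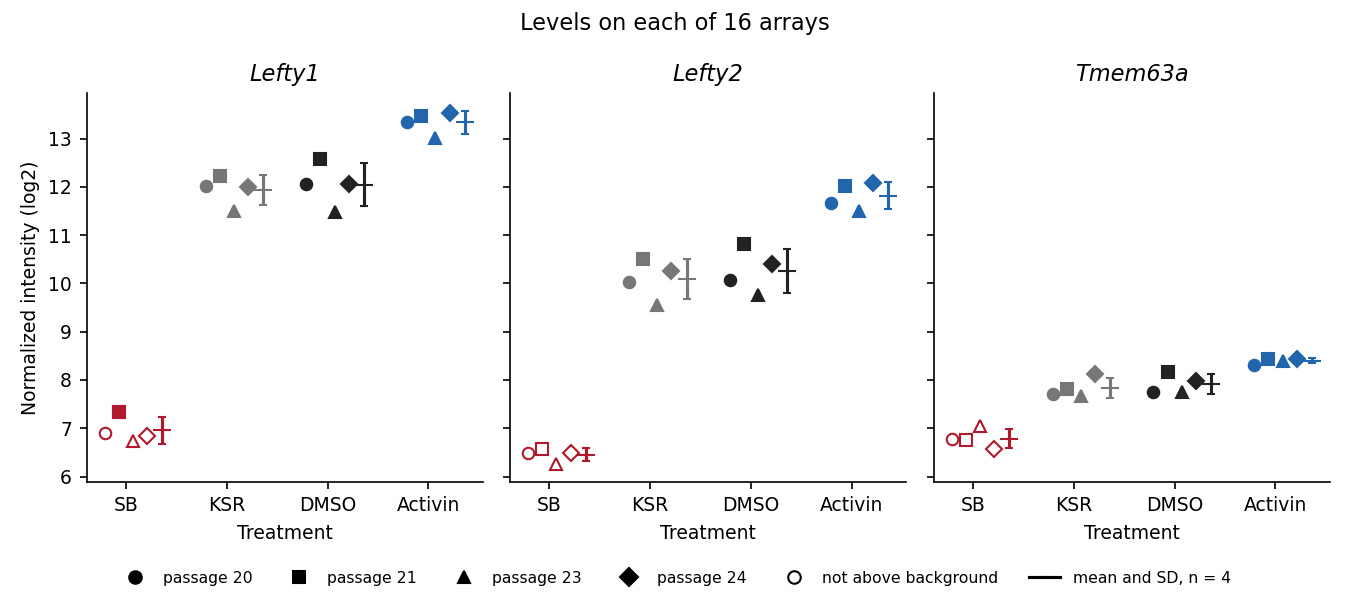
Normalized intensity (log2) of Lefty1, Lefty2 and Tmem63a on each of 16 arrays by treatment, with the passage shown by the symbol and mean ± SD (n = 4) at the right of each group; open symbols mark arrays where the probe was not above background. Every Activin array lies above every DMSO array and every SB array lies below, and DMSO and KSR overlap.

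The promoter of Tmem63a is shown because this gene moved together with the Lefty genes in its neighbourhood. Of the 3 genes it is the only match in the RefSeq promoter table (build GRCm38.p6). The 250 bases before its start (chr1:180942268-180942517, plus strand) are given 5′ to 3′, with capitals for each CAGA, the core of the Smad3 and Smad4 binding motif, and its reverse complement TCTG, and for the longer CAGAC or GTCTG that contains it.
Tmem63a promoter: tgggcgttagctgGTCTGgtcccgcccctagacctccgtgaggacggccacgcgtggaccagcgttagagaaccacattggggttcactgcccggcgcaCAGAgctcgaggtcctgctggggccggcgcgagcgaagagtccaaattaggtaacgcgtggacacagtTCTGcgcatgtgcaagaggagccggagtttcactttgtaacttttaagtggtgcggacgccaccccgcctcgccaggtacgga
CAGA was found 3 times on either strand in this window, and at least 1 match was present in 93.3% of all 32851 promoters of the same length. CAGAC was found 1 time, against 42.2% of promoters with a match. The FoxH1 sequences AATCCACA and AATACACA, searched on both strands, had 0 matches here and occurred in 0.718% and 0.895% of promoters. These matches describe the letters in the window and not the binding of any factor.

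To set the arrays on a common scale, intensities were normalized and put on the log2 scale, where a difference of 1 is a doubling. Mean levels of Lefty1 were 13.34 ± 0.23 with Activin, 12.05 ± 0.44 with DMSO, 11.94 ± 0.31 in KSR and 6.95 ± 0.27 with SB (SD, n = 4). Lefty2 gave 11.82 ± 0.28, 10.26 ± 0.46, 10.09 ± 0.41 and 6.45 ± 0.13 in the same order. Tmem63a gave 8.40 ± 0.05, 7.91 ± 0.21, 7.82 ± 0.21 and 6.78 ± 0.20. For each gene the order of the means was Activin, DMSO, KSR and SB, and the DMSO and KSR means lay closer together than the SD of either group.

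With Activin, Lefty2 was 2.94-fold above DMSO, a log2 difference of 1.56 that ran from 1.21 to 1.75 over the 4 passages (SD 0.24). This was the highest of all 24606 probes in that direction. Lefty1 was 2.44-fold above DMSO, with a log2 difference of 1.29 (SD of passages 0.29, from 0.89 to 1.52), and ranked 3 of all probes. Tmem63a was 1.40-fold above DMSO, by 0.49 on the log2 scale (SD 0.17, from 0.26 to 0.65), and ranked 10. Over the whole array 6 probes, 0.0244% of those measured, were more than 1.5-fold higher with Activin, and Tmem63a was not among them. On the values the authors normalized, its ratio was 1.63-fold, so its place above or below 1.5-fold depends on the normalization.

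With SB, Lefty1 was 34.2-fold below DMSO and changed by -5.09 on the log2 scale, from -5.23 to -4.76 over the passages (SD 0.22). Raising the 3 SB arrays that were not above background to the lowest value above background on the same array gave a fall of at least 28.8-fold. Lefty2 was at least 8.62-fold lower and Tmem63a at least 1.69-fold lower, with all 4 SB arrays raised in this way. Lefty1, Lefty2 and Tmem63a ranked 1, 2 and 7 among the probes that were lower with SB, where 33 probes, or 0.134%, were more than 1.5-fold lower. These probes are part of that count because of the choice of genes. RNA was taken from whole cultures, so fewer expressing cells and less RNA per cell cannot be told apart.

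The span from SB to Activin was limited by background in the same way. The mean of Lefty1 with Activin was at least 70.5-fold above SB after the raising of dim arrays. Lefty2 spanned at least 25.4-fold and Tmem63a at least 2.37-fold. On the authors' normalized values, which have a floor at 40, the DMSO level as a share of the Activin level of the same passage was 41.1% ± 8.70 for Lefty1, 32.1% ± 6.51 for Lefty2 and 62.4% ± 12.3 for Tmem63a (SD, n = 4). The KSR level was 38.0% ± 4.44, 28.3% ± 4.78 and 57.0% ± 11.8 of the Activin level.

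The direction was the same at each passage for all 3 genes, and the size was not. At passage 21 the rise with Activin over DMSO was the smallest for each of them, at 1.85-fold for Lefty1, 2.32-fold for Lefty2 and 1.20-fold for Tmem63a. At passage 23 it was the largest, at 2.87-fold, 3.35-fold and 1.57-fold. The DMSO level of each gene was highest at passage 21, and for the Lefty genes it was lowest at passage 23.

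**Figure D2:**
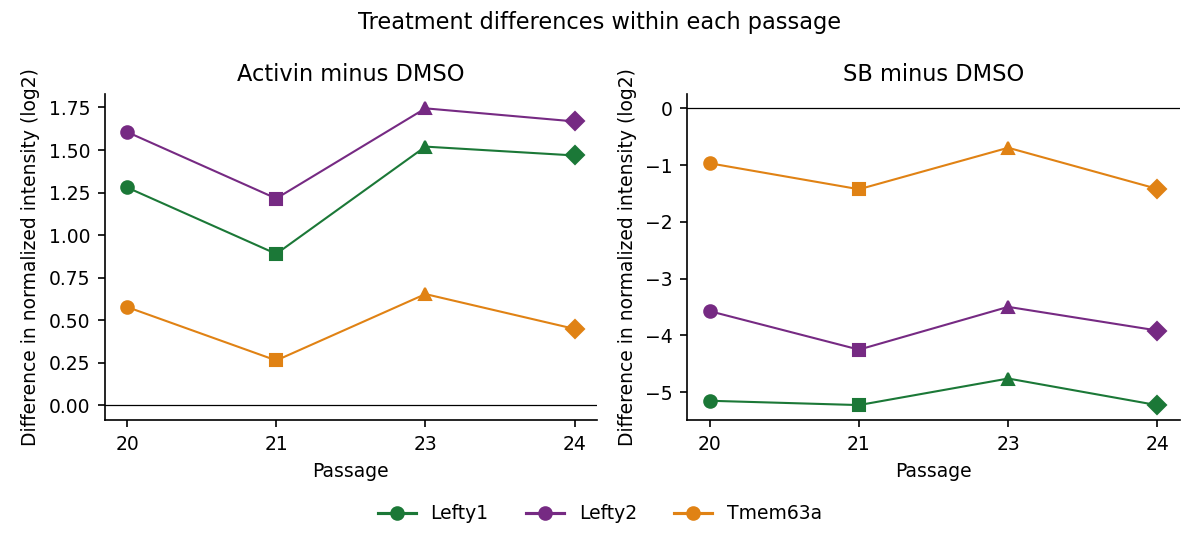
Log2 difference of Activin from DMSO (left) and of SB from DMSO (right) within each passage for the 3 genes; each point is 1 array minus the DMSO array of its passage. All 12 Activin differences are above 0, with the smallest of each gene at passage 21, and all 12 SB differences are below 0.

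A similar graded order was rare on the array. Including the 3 genes, 34 probes (0.138%) had all 4 Activin arrays above and all 4 SB arrays below the DMSO arrays, and 4 probes (0.0163%) were also more than 1.5-fold apart from DMSO on each side. These 4 were Lefty1, Lefty2, Fgf15, a secreted fibroblast growth factor (log2 difference 0.89 with Activin and -1.52 with SB), and a probe without a gene symbol. The last pair was singled out after its values were seen.

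Markers of other cell types were read beside the SB samples. Of the 6 trophectoderm markers, 4 exceeded background on at least 4 arrays, and Elf5 and Hand1 on none. Their summed intensity was 352 to 396 with SB and 268 to 351 with DMSO. Gata3 was 0.55 higher with SB on the log2 scale (adjusted p = 0.00431 in limma) and above background on all 4 SB arrays and on 0 DMSO arrays. The other 5 did not pass, with differences of 0.16 for Krt7, 0.07 for Cdx2, -0.06 for Elf5, -0.11 for Eomes and -0.14 for Hand1. Of the 5 primitive endoderm markers 3 exceeded background on at least 4 arrays, Sox17 and Sox7 on none, and their sum was 347 to 661 with SB and 211 to 532 with DMSO. The ES cell markers summed to 26505 to 34301 with SB and 30536 to 36703 with DMSO. In KSR alone the sums of deposited intensity were 241 to 603 for primitive endoderm and 23533 to 40849 for ES cell markers. No primitive endoderm or ES cell marker passed with SB in limma (lowest adjusted p 0.908 for Gata4 and 0.637 for Utf1). The ES cell markers went in both directions, from -0.22 for Utf1 to 0.20 for Klf4. The part of these differences in the level of the Lefty genes and Tmem63a was not tested.

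The vehicle itself was examined by comparing DMSO with KSR alone. Lefty1 was 0.11 higher with DMSO on the log2 scale (95% confidence interval -0.28 to 0.50), Lefty2 0.17 higher (-0.24 to 0.58) and Tmem63a 0.09 higher (-0.16 to 0.34). None passed the test, with an adjusted p of 0.9996 for each (limma, Benjamini-Hochberg over all probes). Their unadjusted p-values were 0.532, 0.375 and 0.453. No probe of the array passed (0% of 24606 probes), and 803 probes, or 3.26%, had an unadjusted p under 0.05. Within passages Lefty2 was higher with DMSO at 4 of 4, by 0.03, 0.30, 0.21 and 0.14 in the order of passages, and Lefty1 and Tmem63a at 3 of 4 each. With passage as a block the intervals were -0.10 to 0.33 for Lefty1, -0.06 to 0.40 for Lefty2 and -0.16 to 0.34 for Tmem63a, and the unadjusted p-values in limma were 0.254, 0.112 and 0.442. The upper ends without the block, 0.50, 0.58 and 0.34, stand beside Activin differences of 1.29, 1.56 and 0.49 for the same genes, and for Tmem63a the interval reaches above its Activin difference of 0.26 at passage 21.

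Levels of the Lefty genes moved with passage in the same way in the 3 groups without SB in the last 18 h. At passage 21 the level was above the mean of its group by 0.12, 0.52 and 0.29 for Lefty1 and by 0.21, 0.55 and 0.42 for Lefty2 (Activin, DMSO and KSR, log2). At passage 23 the same deviations were -0.33, -0.56 and -0.43 for Lefty1 and -0.32, -0.51 and -0.55 for Lefty2. Passages 20 and 24 lay between them, except that with Activin both genes were highest at passage 24. Tmem63a varied less, with deviations of 0.04, 0.26 and -0.02 at passage 21 and of 0.00, -0.17 and -0.16 at passage 23. It lay below its group mean in all 3 groups at passage 20 (-0.08, -0.17 and -0.12) and above it in all 3 at passage 24 (0.03, 0.07 and 0.30). Averaged over the 3 groups, its deviations of -0.12, 0.10, -0.11 and 0.13 in the order of passages had the same signs as those of Lefty2, which were -0.13, 0.39, -0.46 and 0.20. Those of Lefty1 were 0.04, 0.31, -0.44 and 0.09, with the opposite sign at passage 20.

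**Figure D3:**
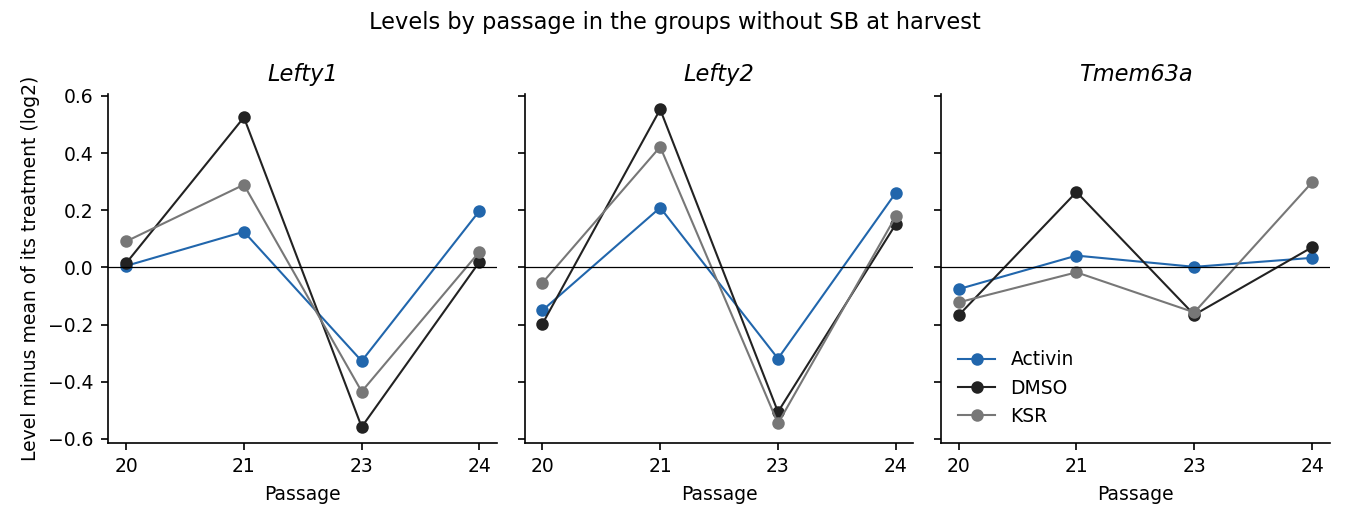
Level of each gene minus the mean of its treatment group (log2) against passage, for the Activin, DMSO and KSR arrays. Lefty1 and Lefty2 are above their group mean at passage 21 and below it at passage 23 in each of the 3 groups, and Tmem63a varies less.

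With treatment in the model, any difference among the 4 passages had an adjusted p of 8.50e-04 for Lefty1 and 9.35e-04 for Lefty2 (limma moderated F test over 16 arrays). Tmem63a had an adjusted p of 0.705. Differences of this kind were common, since 7.17% of all probes passed. The F test counts the arrays of a passage as separate samples. Passage cannot be told apart here from anything else that differed between the sets of cultures. Leaving out the SB arrays, where the genes are near background, gave adjusted p-values of 0.0042, 4.80e-04 and 0.271 in limma, with 2.29% of probes called. The call for the Lefty genes did not hold on the authors' normalized values (adjusted p = 0.0536 and 0.105), with a floor in place of normexp (0.0608 and 0.103) or without passage 23 (0.0917 and 0.0514), all in limma.

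Passages 23 and 24 together were below passages 20 and 21 for Lefty1 by -0.35 on the log2 scale (SE 0.07, adjusted p = 0.00563 in limma, 3.8% of probes called). The difference for Lefty2 was -0.23 (SE 0.07, adjusted p = 0.0784) and for Tmem63a 0.03 (SE 0.08, adjusted p = 0.878). Each side of this comparison holds 2 passages, and the fit counts the 4 arrays of a passage as separate samples. The Lefty1 call was lost with a 2-level passage term (adjusted p = 0.0888), on the authors' values (0.0943) and with a floor in place of normexp (0.0826), all in limma. It also rests on passages 21 and 23. Without passage 23 it was -0.14 (adjusted p = 0.402) and without passage 21 it was -0.19 (adjusted p = 0.189), all in limma.

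Whether the response to treatment itself differed between the later and the earlier passages was tested as an interaction. The Activin difference was larger at passages 23 and 24 by 0.41 for Lefty1 (SE 0.31), 0.30 for Lefty2 (SE 0.38) and 0.13 for Tmem63a (SE 0.24) on the log2 scale. The SB difference was less negative at the later passages by 0.19 (SE 0.31), 0.21 (SE 0.38) and 0.14 (SE 0.24). With SB, Lefty2 and Tmem63a were above background on 0 of 4 arrays and Lefty1 on 1. The SB interaction therefore cannot separate a changed response to SB from a changed DMSO level. None of the 6 passed in limma (adjusted p 0.9998 or higher). Over the whole array 0 probes passed either test (0%), and 731 (2.97%) and 824 (3.35%) had an unadjusted p under 0.05. With 2 arrays in each cell of this design, the SEs are large beside the differences. With passage as a block, the SEs of the Activin interaction fell to 0.18 for Lefty1, 0.20 for Lefty2 and 0.23 for Tmem63a. The unadjusted p-values were then 0.0393, 0.162 and 0.58, and adjusted p in limma was 0.9996 for each.

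The co-variation between the genes was also read with the treatment means taken away. Over the 12 arrays without SB, Pearson's r of what remained was 0.939 between Lefty1 and Lefty2, 0.588 between Lefty1 and Tmem63a and 0.727 between Lefty2 and Tmem63a. These 12 arrays share 4 passages, so the points are not independent and no p is given. The probes most like each gene were then looked for among 9511 other probes with 1 symbol that exceeded background on at least 4 arrays. By level over all 16 arrays, where the gap between SB and the other groups sets most of the value, the probe closest to Lefty1 was Lefty2 (r = 0.990), followed by Mmp25, a membrane-bound matrix metalloproteinase (0.984), Zfp819, a zinc finger protein (0.977), Il17rd, an inhibitor of FGF signaling (0.966), Fgf15 (0.963) and Tmem63a (0.960). Lefty2 had the same 5 companions besides Lefty1, from Fgf15 (0.980) to Il17rd (0.971). For Tmem63a the closest were Lefty2 (0.974) and Lefty1 (0.960), then Plekha2, Nphs1, Fgf15 and Spsb1 (0.953 to 0.945).

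Within treatments the ranking changed. With group means removed over 16 arrays, the probes closest to Lefty1 were Fgf15 (r = 0.933), Efna5, an ephrin ligand (0.905), and Lefty2 (0.897), which ranked 3. Tmem63a ranked 1627 with an r of 0.375. For Lefty2, Lefty1 ranked 2 and Tmem63a 822 (r = 0.502). These ranks include the 4 SB arrays, where Lefty2 and Tmem63a were not above background.

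The genes around the 3 genes were read in the same way. None of the 20 nearest measured genes, 10 on each side, passed the test with Activin, where 0.0203% of all probes were called higher and 0% lower, or with SB, where 0.0975% were called higher and 0.211% lower (limma). With an unadjusted p under 0.05 there were 0 with Activin and 4 with SB, of which 1 was higher and 3 lower. Over all probes 2.81% were higher and 2.93% lower with SB at that threshold. The median log2 difference of the 20 genes was 0.00 with Activin and -0.05 with SB, against 0.00 for all probes in both. The largest differences with Activin and SB were 0.25 and -0.29, both at Ephx1, an epoxide hydrolase that is the next gene after Tmem63a (adjusted p = 0.778 with SB), and it was above background on 10 of 16 arrays. Sde2, the nearest measured gene beyond Lefty2, had -0.24 with SB (SE 0.08, adjusted p = 0.439) and 0.00 with Activin. Parp1, a sensor of DNA breaks, was above background on 16 of 16 arrays with -0.06 and 0.14. Mixl1, a homeobox gene of mesendoderm that also lies here, was above background on 0 arrays.

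**Figure D4:**
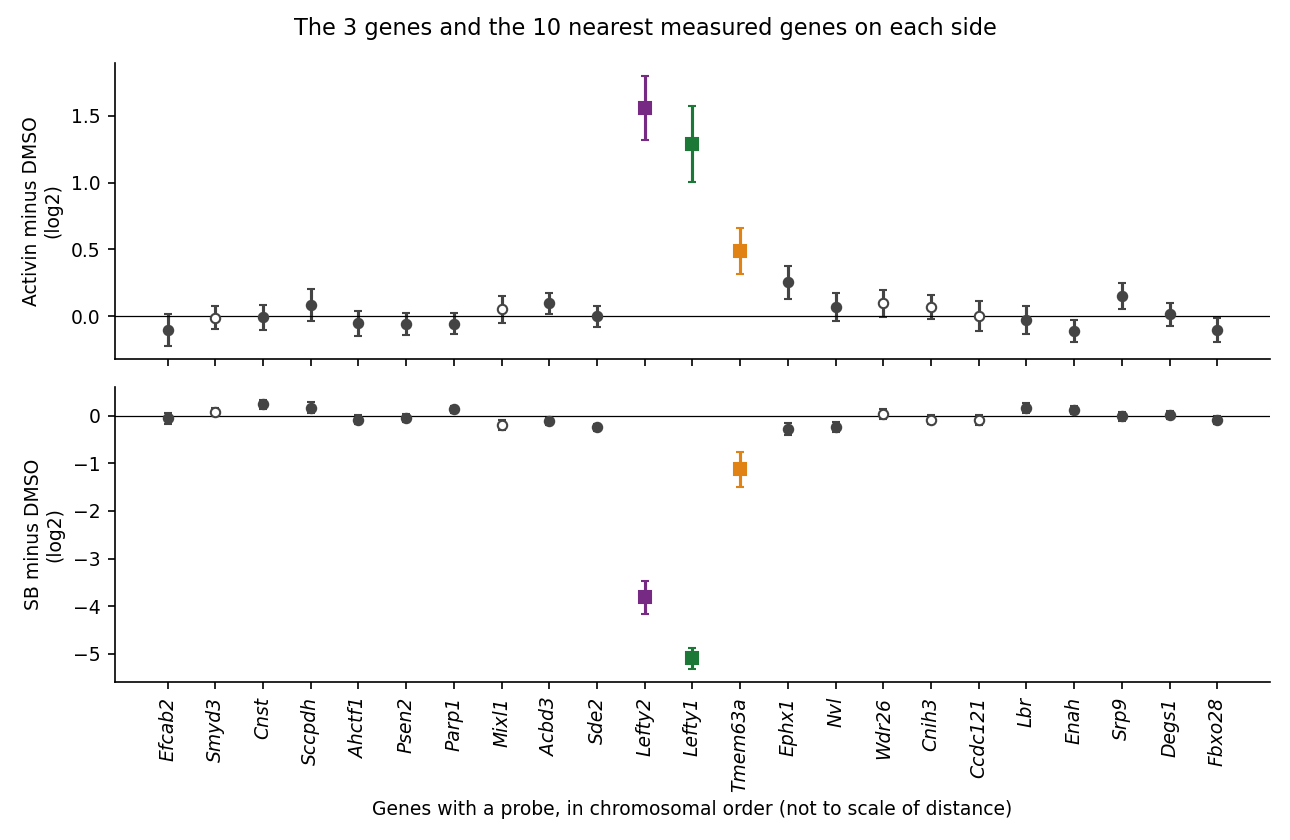
Log2 difference from DMSO with Activin (top) and SB (bottom) for the 3 genes (colored squares, bars SD of 4 passage differences) and the 10 nearest measured genes on each side (circles, bars SE of the model; open where above background on fewer than 4 arrays), in chromosomal order and not to scale of distance. The neighbours lie between -0.11 and 0.25 with Activin and between -0.29 and 0.24 with SB.

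Tmem63a has a pair of relatives on the array. Tmem63b was above background on 16 of 16 arrays, with log2 differences of -0.13 (SE 0.11) with Activin and -0.05 (SE 0.11) with SB, and neither passed (adjusted p = 1 and 0.997 in limma). Tmem63c was above background on 0 arrays.

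Among the other genes of the Activin and Nodal pathway, 42 of 44 listed genes had a probe, and 27 of these exceeded background on at least 4 arrays. With Activin 0 rose and 0 fell (limma), and at an unadjusted p under 0.05 there were 2 higher and 1 lower, where 1.86% of all probes were higher and 1.73% lower. With SB 0 rose and 3 fell, where 0.0975% of all probes rose and 0.211% fell, and the median difference of the 42 was -0.01 against 0.00 for all probes. Under the block on passage 4 fell, Gdf1 being the fourth.

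The genes that fell with SB stand at different steps of the pathway. Tdgf1, the EGF-CFC co-receptor that Nodal needs and Lefty binds, fell by 0.99 on the log2 scale (SE 0.16, 1.99-fold, adjusted p = 0.00123 in limma). Its other probe was above background on 0 arrays. Nodal, the ligand, fell by 0.55 (SE 0.10, 1.46-fold, adjusted p = 0.00855), and its second probe fell by 0.38 (adjusted p = 0.0452). Pmepa1, a membrane protein that holds Smad2 and Smad3 away from the receptor, fell by 0.43 (SE 0.09, adjusted p = 0.0465). Gdf1, a co-ligand of Nodal, had -0.34 (SE 0.08, adjusted p = 0.0793, and 0.0258 with the block on passage). With Activin the differences of these genes were 0.14 for Tdgf1, 0.31 for Nodal, 0.30 for Pmepa1 and 0.15 for Gdf1, none past the threshold. Tdgf1 kept its call in 24 of 27 alternative settings, Nodal in 20 and Pmepa1 in 3, and on the authors' normalized values 0 pathway genes fell.

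By role, the ligands and their processing enzymes had 1 of 7 genes that fell with SB and the receptors and co-receptors 1 of 8. Among Smads and nuclear partners 0 of 7 passed. Smad3 had the largest difference there, with -0.26 (SE 0.09) with Activin and 0.23 (SE 0.09) with SB. The intracellular negative regulators had 1 of 13, and Smad7, Skil and Bambi were above background on 0 arrays. Of the secreted antagonists other than the Lefty genes, 0 of 7 passed in either comparison. Cer1, Dand5, Fstl3 and Nog were above background on 0 arrays, Fst on 9, Chrd on 9 and Tmeff1, the membrane-bound antagonist, on 16. Their log2 differences lay between -0.09 and 0.09 with Activin and between -0.18 and 0.07 with SB.

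**Figure D5:**
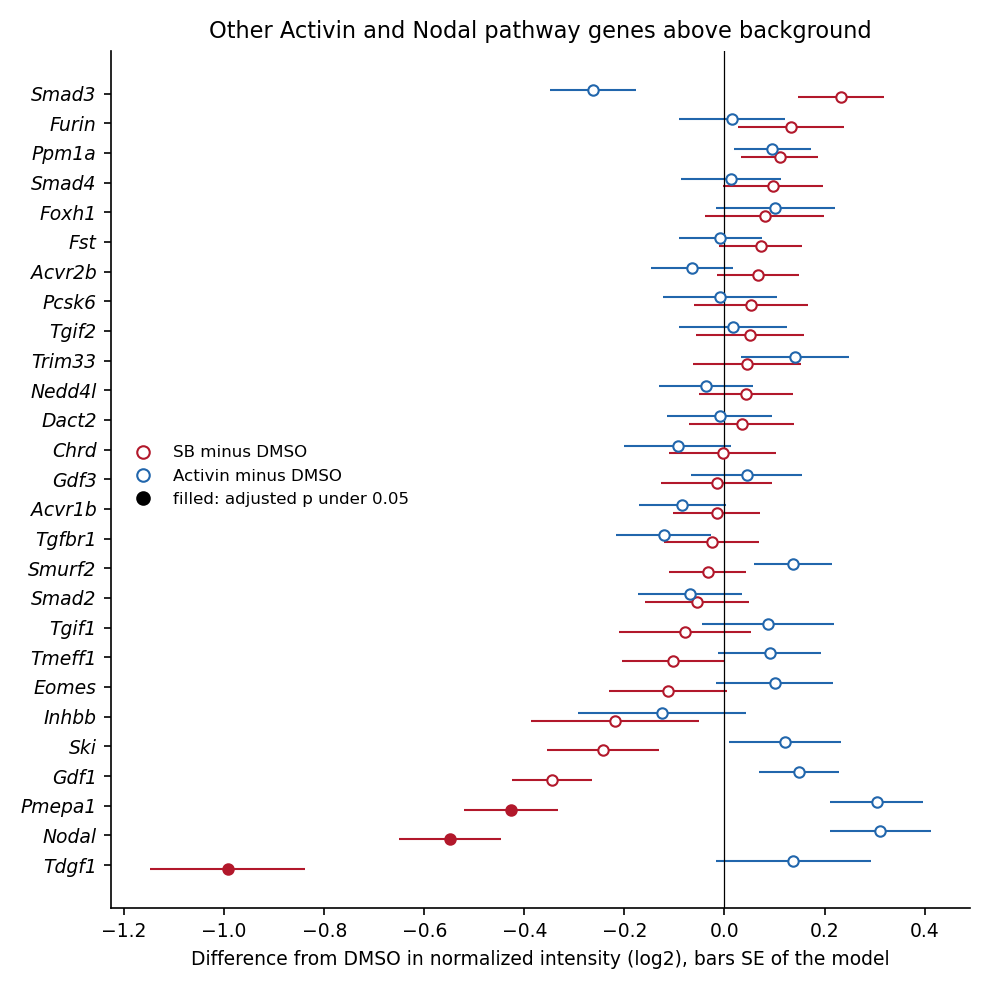
Log2 difference from DMSO with SB (red) and Activin (blue) for the 27 pathway genes other than the Lefty genes that were above background on 4 or more arrays; bars are the SE of the model and filled symbols passed the adjusted threshold. Tdgf1, Nodal and Pmepa1 are the 3 filled symbols, all with SB.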

How the data were processed

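RNA of 16 cultures of E14TG2a cells, 1 array per culture, was hybridised as biotin-labelled cRNA to MouseRef-8 v2.0 BeadChips. The authors deposited non-normalized intensities after background subtraction in BeadStudio (no version is stated in the sources), and 26.8% to 28.7% of an array's probes lay below 0. The deposited normalized intensities follow the authors' cross-correlation method, with values under 40 set to 40.

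Non-normalized intensities were corrected with normexp in limma 3.58.1 (R 4.3.3, saddle-point estimation, offset 50), quantile normalized and put on the log2 scale. The offset draws dim probes together, so their fold changes are compressed. The 4 groups were fitted over 16 arrays (lmFit and eBayes, two-sided, 12 residual degrees of freedom, median residual SD 0.138), with Benjamini-Hochberg adjustment over 24606 probes and a threshold of 0.05. Passage was tested with group in the model, and the response at later against earlier passages with 8 cells of 2 arrays. A fold written "at least" compares the brighter mean with the dim mean with every dim array set to the smallest intensity that counted as above background there. Arrays have no read depth, and the number of arrays limits the precision.

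Replicate numbers are the passages in the labels. With group means removed, arrays of the same passage correlated with r from 0.0977 to 0.325 (24 pairs) and arrays of different passage and group from -0.238 to 0.0995 (72 pairs), so passage was also fitted as a block.

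Symbols came from the platform annotation, updated by gene identifier; 20980 probes had 1 symbol, 1 had several and 3625 none, naming 15967 genes. A gene with several probes is given by the brightest. Genes named are the 3 members, the pathway list, the 10 nearest measured genes on each side in the RefSeq table and the 6 probes most alike. The members and lists were chosen with earlier results of these data known. The fitting code was tested on simulated data. Alternatives were a floor at 16 without normexp, an offset of 16, 75th percentile scaling, the authors' normalized values, only probes above background, the block, only the groups compared, a 2-level passage term, the 99th percentile as background and leaving out arrays; fits without the SB arrays and the interaction with passage as a block were added after seeing the data.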

Additional observations from a re-analysis of the deposited data

How the results depend on the processing

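Each of the 3 genes has 1 probe, so no other probe of a gene could be tried. The direction of every treatment difference of the 3 genes was kept in all 27 alternatives. The size moved by more than the SD of its passage differences only where dim values were treated differently. With a floor at 16 and no normexp, SB minus DMSO was -6.72 for Lefty1, -6.16 for Lefty2 and -2.52 for Tmem63a, Activin minus SB was 8.03, 7.79 and 3.21, and Activin minus DMSO of Tmem63a was 0.69. With an offset of 16, SB minus DMSO was -5.55 for Lefty1 and -4.49 for Lefty2, and Activin minus SB was 6.85, 6.07 and 2.00. On the authors' normalized values, SB minus DMSO was -6.35, -4.66 and -1.80, Activin minus SB was 7.66, 6.32 and 2.50, and Activin minus DMSO of Tmem63a was 0.70. With the 99th percentile as background, the fall with SB was at least 23.5-fold for Lefty1, 6.81-fold for Lefty2 and 1.34-fold for Tmem63a. The span from SB to Activin was then at least 57.5-fold for Lefty1, 20.1-fold for Lefty2 and 1.87-fold for Tmem63a. The cause of the other shifts was not tested.

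Passage results depended more on the setting. Any difference among passages was no longer called with a floor at 16 (adjusted p = 0.0608 for Lefty1 and 0.103 for Lefty2 in limma), on the authors' normalized values (0.0536 and 0.105) and on those values without the SB arrays (0.137 and 0.0932). The later minus earlier difference of Lefty1 lost its call with a floor at 16 (-0.52), on the authors' values with and without the SB arrays (-0.39 and -0.38) and with a 2-level passage term (-0.35). That of Lefty2 passed with 75th percentile scaling (-0.24) and on probes above background only (-0.23), and that of Tmem63a turned to -0.023 with that scaling. The number of probes called for any passage difference, 1764, became 1144 with the floor, 693 with an offset of 16, 4137 with the scaling, 962 on the authors' values, 2756 on probes above background, 563 without the SB arrays and 119 on the authors' values without them. For later minus earlier passages 934 became 519 with an offset of 16, 6093 with the scaling, 557 on the authors' values, 441 with the 2-level term, 387 without the SB arrays and 126 on the authors' values without them. The interaction of Lefty1 with SB turned to -0.44 with the floor, and the number of probes called for the Activin interaction, 0, became 13 with the floor and 10 on the authors' values, and for the SB interaction 9, 5 and, with an offset of 16 or with passage as a replicate block, 1. Pathway genes that fell with SB numbered 1 with the floor (Gdf1, and none of Tdgf1, Nodal and Pmepa1), 1 with an offset of 16 or only the groups compared (Tdgf1 in both) and 0 on the authors' values.

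Leaving out each array or each passage in turn kept the treatment differences within their passage spread. DMSO minus KSR ranged from -0.062 to 0.30 for Lefty1, -0.014 to 0.34 for Lefty2 and -0.0066 to 0.19 for Tmem63a. Later minus earlier passages ranged from -0.56 to -0.14 for Lefty1, -0.51 to 0.043 for Lefty2 and -0.048 to 0.11 for Tmem63a. The Activin interaction ranged from 0.12 to 0.70 for Lefty1, -0.079 to 0.67 for Lefty2 and -0.085 to 0.35 for Tmem63a, and the SB interaction from -0.094 to 0.48 for Lefty1, -0.17 to 0.58 for Lefty2 and -0.22 to 0.50 for Tmem63a. Adjusted p for any passage difference ranged from 3.58e-04 to 0.0917 for Lefty1 and from 3.97e-04 to 0.0514 for Lefty2, the highest without passage 23 in limma. Probes called for it ranged from 459 to 1770, for later minus earlier passages from 303 to 898 and for each interaction from 0 to 1. Pathway genes that fell with SB ranged from 1 to 3, with 1 (Tdgf1) without the DMSO array of passage 21, without passage 21 or without passage 23, and 1 (Nodal) without passage 20.

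With passage as a replicate block, the differences of the 3 genes were those of the fit without it, adjusted p for DMSO minus KSR was 0.9994 for each gene, and pathway genes that fell with SB numbered 4. No other vehicle, pathway or neighbour call changed under the block. The number of arrays and the background limit of 52.9 to 68.1 intensity units set what can be measured, above all for Tmem63a with SB.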

Other observations

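Some probes ran opposite to the 3 genes over the 16 arrays. They were chosen after their values were seen, as those of lowest Pearson r among 9511 probes above background on at least 4 arrays, and the gap between SB and the other groups sets most of the value. For Lefty1 these were Id3, a known target of BMP signaling that blocks DNA binding by its partner factors (r = -0.962, log2 difference from DMSO of -0.19 with Activin and 0.97 with SB), Ceacam1, a cell adhesion molecule (r = -0.949, -0.19 and 0.62), and Akr1b8, an aldo-keto reductase (r = -0.941, -0.27 and 0.53). Akr1b8 was also among the most opposite for Lefty2 (r = -0.956) and Tmem63a (r = -0.936). No test was made of these relations.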
